A study of Mus musculus with 59 samples.

Results

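The RING1 and PCGF genes, which encode the core of Polycomb repressive complex 1 (PRC1), were followed in 59 poly(A) RNA-seq libraries from 6 conditional mouse embryonic stem cell (ESC) lines. The 8 genes were chosen by symbol among the 24391 genes of the deposited tables: *Ring1* (RING1A), *Rnf2* (RING1B), *Pcgf1*, *Pcgf2* (also called *Mel18*), *Bmi1* (PCGF4), *Pcgf3*, *Pcgf5* and *Pcgf6*. All 8 were above 0 TPM in every library, TPM being transcript abundance scaled for gene length to the same total in each library. The question put to the data was whether the remaining paralogues changed when a RING1 or PCGF gene was lost or altered, and how far the lines differed before any treatment.

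Each line was sampled as ESCs, kept with LIF and 3 kinase inhibitors on fibroblast feeder cells, and as embryoid bodies (EBs), made by 2 days in suspension without those factors. Control libraries had no 4-hydroxytamoxifen (4-OHT), and mutant libraries had 4-OHT, which activates the ERT2-Cre recombinase that all groups carry. By the labels, controls were Pcgf1 f/f, Pcgf2 f/f with Pcgf4 f/f, Pcgf3 f/f with Pcgf5 f/f, Pcgf6 f/f, Ring1a -/- with Ring1b f/f, or Ring1a pm/pm with Ring1b not yet altered. Their mutants carried the delta alleles of the floxed genes or, in the last line, pm/pm at both RING1 genes, where pm is a point mutant with impaired ubiquitin ligase activity. The Ring1a null allele is therefore present in every library of the Ring1A/B line and the Ring1a pm allele in every library of the point mutant line, controls included. The Pcgf1 line had 4 control ESC libraries and 5 in each other group, and the other 5 lines had 2 libraries in each group. By the study's methods 5 of the lines came from blastocysts with CreERT2 at *Rosa26*. The paper states that *Pcgf1* to *Pcgf5* were deleted 2 days before EB formation and *Pcgf6* at its start. In the Ring1A/B line, RING1B depletion and EB formation were likewise started together. Each line stands for its own clone or derivation, and the labels do not say whether replicates were separate cultures, so p-values measure the spread between these libraries, which may be technical.

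RING1A and RING1B are alternative catalytic subunits of PRC1 that place a single ubiquitin on histone H2A. Each pairs with 1 of the 6 PCGF proteins, and the PCGF protein decides which other subunits join: PCGF2 and BMI1 form canonical PRC1 with CBX and PHC proteins, PCGF1 joins KDM2B and BCOR, PCGF3 and PCGF5 join AUTS2-type partners, and PCGF6 joins MGA and E2F6. In ESCs these complexes are known for holding developmental genes silent.

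The labels of 4 lines could not be taken at face value. In the Pcgf1 and point mutant lines the sample label and the condition written in the deposited file name were the same for all libraries. They differed for 4 libraries of the Ring1A/B line, 6 of the Pcgf2/4 line, 5 of the Pcgf3/5 line and 6 of the Pcgf6 line, 21 of 32 in all, and the stage markers followed the file names. In the Ring1A/B line, for example, the summed TPM of 8 naive pluripotency genes was 482 to 489 in the libraries labelled mutant ESC, whose files are named control EB, and 3135 to 3197 in those labelled control EB, whose files are named mutant ESC. The 4 formative epiblast genes ran the other way, at 1007 to 1047 and 104 to 109. By file name, the Ring1A/B libraries labelled EB were all mutant and those labelled ESC all control, and those labelled mutant were all EB and those labelled control all ESC. In the Pcgf2/4 and Pcgf6 lines, the libraries labelled ESC were all named control and those labelled EB all named mutant, with replicate 1 of each group named ESC and replicate 2 named EB. Libraries of these 4 lines were compared by label, file-name conditions are given as a description, and no regrouping by file name was tested. In the Ring1A/B line each labelled group held a single file-name condition, so its labelled contrasts also compare those conditions. *Pou5f1* and *Sox2*, which mark pluripotent cells, summed to at least 1413 TPM in every library. In bulk RNA, fewer cells of a type and less RNA per cell cannot be told apart.

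Promoters are shown for *Bmi1* and *Pcgf5*, which read higher in the RING1 point mutant, although limma called neither within a stage before alternatives were tried. The promoter of *Pcgf2*, the other PCGF gene of canonical PRC1, which did not read higher, is shown beside them. RefSeq windows on GRCm38.p6 held the 250 bases before the start of 7 of the 8 members (9 windows). Capitals mark CpG dinucleotides, because CpG-rich promoters are the usual sites of PRC1 in ESCs.
Bmi1 promoter, chr2:18676768-18677017, plus strand: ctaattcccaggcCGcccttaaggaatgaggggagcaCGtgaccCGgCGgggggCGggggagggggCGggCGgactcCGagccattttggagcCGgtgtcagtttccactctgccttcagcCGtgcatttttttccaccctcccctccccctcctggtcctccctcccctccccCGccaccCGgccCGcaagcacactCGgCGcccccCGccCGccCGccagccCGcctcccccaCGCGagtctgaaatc
Pcgf5 promoter of the most upstream start, chr19:36348079-36348328, plus strand: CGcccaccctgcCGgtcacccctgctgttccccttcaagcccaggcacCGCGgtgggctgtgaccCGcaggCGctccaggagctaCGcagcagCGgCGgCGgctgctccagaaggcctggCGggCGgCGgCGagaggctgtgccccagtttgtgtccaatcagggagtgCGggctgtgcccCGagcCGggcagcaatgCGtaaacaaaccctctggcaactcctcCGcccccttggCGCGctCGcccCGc
Pcgf2 promoter, chr11:97699649-97699898, minus strand: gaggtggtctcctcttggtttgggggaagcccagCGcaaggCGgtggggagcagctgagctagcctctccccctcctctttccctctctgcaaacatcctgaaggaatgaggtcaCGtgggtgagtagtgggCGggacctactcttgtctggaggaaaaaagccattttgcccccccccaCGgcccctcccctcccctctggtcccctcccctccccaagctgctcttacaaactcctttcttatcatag

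The *Bmi1* window held 21 CpGs and the *Pcgf5* window 23, where the median of 32851 promoter windows was 6; 16.3% and 13.3% of all windows held as many or more. The *Pcgf2* window held 5, a number that 55.6% of windows reached. Members ranged from 4 in a second start of *Pcgf5* to 30 in *Ring1*. Among members that gave no call in the point mutant with or without the replicate block, *Rnf2* held 20, *Pcgf3* 16 and *Pcgf6* 14. A CpG count above the median was thus not particular to *Bmi1* and *Pcgf5*. The E-box CACGTG, which reads the same on both strands, lay in the *Bmi1* and *Pcgf2* windows and in 6.02% of all windows. The E2F core GGCGGGA, in either strand, lay in the *Pcgf2* window and in another *Pcgf5* window, and in 9.75% of all windows. These matches describe letters only.

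TPM is scaled for transcript length, so the levels of the genes can be set side by side. *Pcgf6* was the highest of the 8 in 32 libraries and *Rnf2* in 21, and *Bmi1* was the lowest in 35. *Pcgf3* took every rank from 1 to 8 and *Pcgf1* ranks 3 to 8. *Ring1* was never among the 4 highest, so that *Rnf2* made up most of the RING1 transcripts: 80.6 to 94.4% in control ESCs of the Pcgf1 line and 84.6 to 89.1% in those of the point mutant line. In the Pcgf1 line *Rnf2* (median 83.0 TPM), *Pcgf2* (72.3) and *Pcgf6* (66.5) had overlapping ranges, whereas *Pcgf3* (42.6) exceeded *Pcgf5* (16.95) in 19 of 19 libraries without overlap. The lowest gene in that line was *Pcgf1* itself (2.77 TPM, deleted libraries included), and its range overlapped that of *Bmi1* (7.85). In the Pcgf3/5 line *Pcgf6* (91.8) exceeded *Rnf2* (72.1) in all 8 libraries without overlap. In the point mutant line *Pcgf6* (73.8), *Pcgf2* (66.5) and *Rnf2* (65.6) did not separate, and *Bmi1* (12.6) and *Ring1* (12.4) did not separate either. The summed TPM of the 6 PCGF genes ran from 128 to 281 over the 59 libraries.

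**Figure D1:**
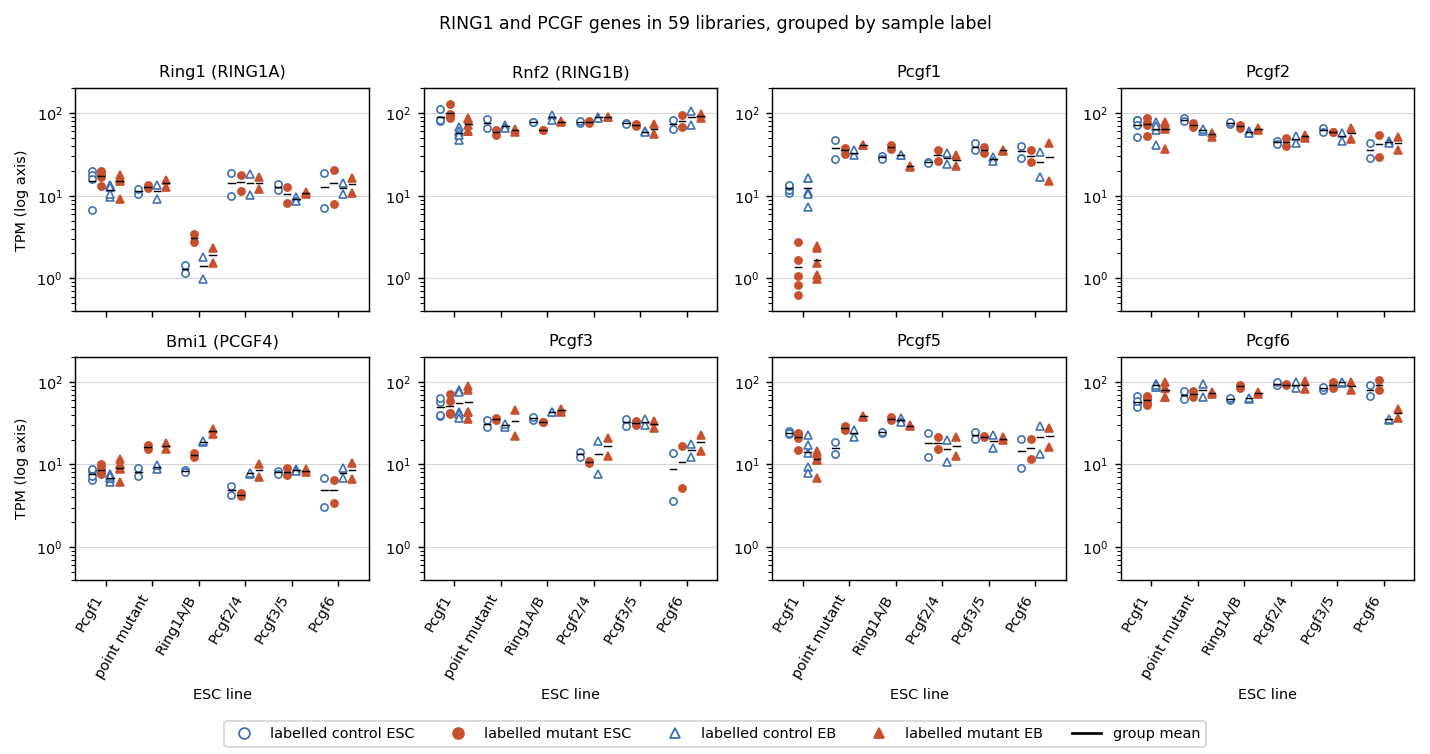
TPM on a log axis for each of the 8 genes, 1 panel a gene, with every library as a point (open blue, labelled control; filled orange, labelled mutant; circles, labelled ESC; triangles, labelled EB) and a bar at the group mean, for 6 ESC lines. *Pcgf1* drops below 3 TPM in mutant libraries of its own line, *Ring1* lies between 0.973 and 3.41 TPM in all libraries of the Ring1A/B line, and *Bmi1* is higher in the mutants of the point mutant line.

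Baseline levels were compared in control ESCs of the 3 lines whose control ESC labels and file names gave the same condition. With limma on log2(TPM + 0.1) and Benjamini-Hochberg adjustment over 19929 genes, the F test over the lines passed for *Ring1* (adjusted p = 0.00823) and *Pcgf1* (adjusted p = 0.00999), 2 of 8 members where 13.2% of genes passed. *Ring1* read 1.15 and 1.47 TPM in control ESCs of the Ring1A/B line, whose cells are Ring1a -/-. In control ESCs of the point mutant line it read 10.5 and 12.1 TPM, and in those of the Pcgf1 line 6.82, 20.04, 17.9 and 15.9. The Ring1A/B values were below all others and were not at 0. The fitted difference from the Pcgf1 line was -3.34 (SE 0.43, limma adjusted p = 0.0358).

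*Pcgf1*, which pairs with KDM2B and BCOR, was lower in the Pcgf1 line than in the point mutant line even without 4-OHT. Its 4 control ESC libraries read 10.7, 11.7, 12.99 and 13.6 TPM, against 28.1 and 46.9 in the point mutant line and 30.6 and 27.6 in the Ring1A/B line. The Pcgf1 line thus lay below both other lines without overlap. The difference of point mutant minus Pcgf1 line was 1.56 (95% interval 1.03 to 2.10, 2.96-fold, limma adjusted p = 0.00524), and that of Ring1A/B minus Pcgf1 line was 1.24 (limma adjusted p = 0.110). In control EBs the same ordering held, at 11.2, 7.30, 10.4, 16.6 and 16.6 TPM in the Pcgf1 line and 30.8 and 35.7 in the point mutant line (1.48, limma adjusted p = 0.0495). That EB call was lost without any 1 of the 7 libraries, with adjusted p from 0.0539 to 0.269.

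*Pcgf5* differed the other way in ESCs, with 25.5, 23.9, 23.3 and 23.8 TPM in the Pcgf1 line and 13.3 and 18.7 in the point mutant line. The difference was -0.61 (limma adjusted p = 0.0437). It lost its call without point mutant control ESC replicate 1 (-0.37, adjusted p = 0.157), and also without either Ring1A/B library or control ESC replicate 2, 3 or 4 of the Pcgf1 line (adjusted p = 0.0607 to 0.0905). Called genes made up 21.7% of those tested for point mutant minus Pcgf1 line (2 of 8 members), 0.226% for Ring1A/B minus Pcgf1 line (1 of 8) and 6.91% for point mutant minus Ring1A/B line (1 of 8, *Ring1*). In control EBs it was 5.09% (1 of 8). The call on *Ring1* against the Pcgf1 line was lost without Ring1A/B replicate 1 (adjusted p = 0.217) or 2 (0.159), without Pcgf1-line replicate 2 (0.0886), 3 (0.0928) or 4 (0.0629), and without point mutant replicate 1 (0.0913) or 2 (0.0918). That between the point mutant and Ring1A/B lines (3.02, limma adjusted p = 0.0159) was lost without any 1 of their 4 libraries (0.0775 to 0.134). Line, clone and genotype cannot be told apart in these comparisons, and library series, a code in the file headers, only in part. In a fit of the libraries labelled control ESC of all 6 lines, *Pcgf1* stood 1.06 to 1.67 higher in the other 5 lines than in the Pcgf1 line (limma adjusted p = 0.00101 to 0.0664). By file name, that set is mixed. Replicate 2 of the Pcgf2/4 and Pcgf6 lines is named control EB, and replicate 1 of the Pcgf3/5 line is named mutant ESC. For those lines the fit is therefore not a baseline of control ESCs.

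The library series named in the file headers gave a partial check. Control ESC replicate 4 of the Pcgf1 line and all Ring1A/B libraries carried the same series code, and within it *Pcgf1* read 13.6 TPM against 30.6 and 27.6, with *Ring1* at 15.9 against 1.15 and 1.47. *Bmi1* read 7.27 against 8.61 and 8.14. *Pcgf3* moved with the series inside the Pcgf1 line: its 2 replicates of one series, 2 and 3, read 57.1 to 87.9 TPM over all groups and the other replicates 35.2 to 43.1, without overlap. The Pcgf2/4 and Pcgf6 lines, which share another series code, held the lowest *Pcgf3*, at 7.62 to 21.2 and 3.62 to 23.0 TPM.

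Deletion of *Pcgf1* was followed by a change in 1 of the 8 genes, *Pcgf1* itself. It read 0.835, 1.06, 0.627, 2.77 and 1.65 TPM in *Pcgf1*-KO ESCs, below every control value given above. In *Pcgf1*-KO EBs it read 0.978, 1.53, 1.09, 2.47 and 2.32 TPM. The drop was -3.23 in ESCs (SE 0.38, limma adjusted p = 0.000664) and -2.84 in EBs (SE 0.36, limma adjusted p = 0.000637). All 4 and all 5 same-numbered pairs fell. Over 20594 genes tested, 0.641% were called in ESCs and 1.95% in EBs. In ESCs the other 7 members had adjusted p of 0.876 or more.

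In *Pcgf1*-KO EBs the next largest differences were in *Bmi1* and *Rnf2*. *Bmi1* read 6.18, 6.78, 7.73, 6.75 and 7.20 TPM in control EBs and 6.14, 10.02, 11.5, 8.85 and 9.07 in KO EBs. Replicate 1 did not move, and the other 4 KO libraries lay above all controls. The difference was 0.37 (95% interval 0.01 to 0.73, 1.29-fold, limma adjusted p = 0.403). It passed with the library series of the file headers as a block, that is, as a further term of the fit (limma adjusted p = 0.0485). That block was added after the data were seen. The difference also passed after quantile normalization (limma adjusted p = 0.0478), but not with the replicate block (limma adjusted p = 0.0528). With a pseudocount of 1, the mean TPM filter or median-of-ratios scaling, 1 of 8 members was called, as in the main fit. *Rnf2* read 67.3, 47.1, 58.4, 61.6 and 54.5 TPM in control EBs and 60.2, 60.1, 72.7, 84.2 and 88.3 in KO EBs, with overlap between the groups. Its difference was 0.33 (95% interval 0.02 to 0.64, 1.26-fold, limma adjusted p = 0.363), higher in 4 of 5 pairs.

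The other paralogues gave no call in KO EBs. *Pcgf2* differed by 0.00 (95% interval -0.46 to 0.45), *Pcgf3* by 0.04 (-0.56 to 0.64), *Pcgf5* by -0.22 (-0.75 to 0.32) and *Pcgf6* by -0.20 (-0.47 to 0.06). *Ring1* differed by 0.31 (-0.22 to 0.83). The interval of *Pcgf3* leaves room for an increase of up to 1.56-fold. Subtracting the ESC effect of the deletion from its EB effect gave 0 of 8 members called by limma, with 0 at an unadjusted p under 0.05, where 0.00486% of genes were called. Summed TPM of 7 fibroblast genes, which mark the feeder cells, was 191 to 277 in control ESCs, 146 to 219 in KO ESCs, 24.0 to 45.1 in control EBs and 7.37 to 13.4 in KO EBs, with 2 to 4 of the 7 at 0 in some library. Its part in these differences was not tested. Of 37 other Polycomb genes, 0 were called by limma in KO ESCs or EBs, where 0.641% and 1.95% of all genes were.

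**Figure D2:**
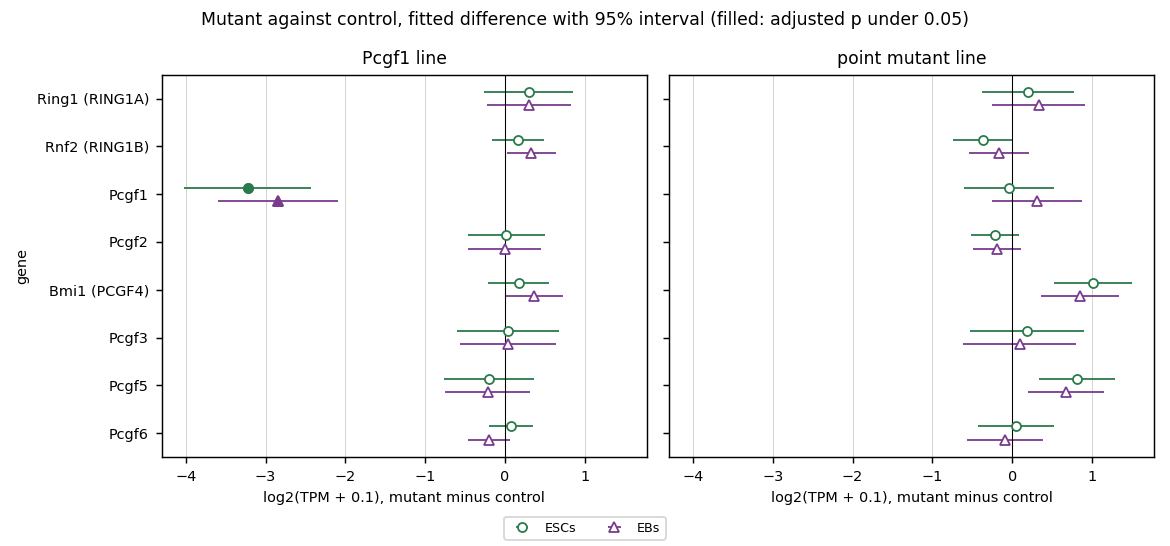
Fitted difference of mutant minus control on the log2(TPM + 0.1) scale with its 95% interval for the 8 genes in ESCs (circles) and EBs (triangles), in the Pcgf1 line (left) and the point mutant line (right); filled symbols passed an adjusted p of 0.05. *Pcgf1* at -3.23 and -2.84 is the filled pair on the left, and *Bmi1* at 1.02 and 0.85 and *Pcgf5* at 0.81 and 0.68 lie farthest from 0 on the right.

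When the RING1 enzymes were altered by point mutation rather than lost, *Bmi1* and *Pcgf5* read higher in both stages. By limma neither was called at either stage before any alternative was tried. *Bmi1*, a canonical PRC1 subunit, read 8.94 and 7.19 TPM in control ESCs and 15.3 and 17.3 in mutant ESCs. In EBs it read 8.75 and 9.88 in controls and 15.4 and 18.3 in mutants. No mutant library overlapped a control. The difference was 1.02 in ESCs (SE 0.21, 95% interval 0.52 to 1.51, 2.02-fold) and 0.85 in EBs (SE 0.21, 95% interval 0.36 to 1.34, 1.80-fold), with limma adjusted p of 0.0545 and 0.0671. When replicates were blocked, so that same-numbered libraries were compared with each other, the adjusted p fell to 0.0342 and 0.0442.

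*Pcgf5*, which pairs with AUTS2-type partners, moved with it. It read 13.3 and 18.7 TPM in control ESCs and 26.1 and 29.6 in mutant ESCs, and 21.7 and 26 in control EBs and 38.9 and 37.2 in mutant EBs. Mutants lay above controls within each stage, although mutant ESCs and control EBs nearly met. The difference was 0.81 in ESCs (SE 0.20, 1.76-fold, limma adjusted p = 0.0891, with the block 0.0376) and 0.68 in EBs (SE 0.20, 1.597-fold, limma adjusted p = 0.112, with the block 0.0499). *Pcgf3*, its closest paralogue, differed by 0.19 (95% interval -0.53 to 0.90) and 0.09 (-0.62 to 0.81).

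By limma without the block, 0 of 8 members were called at either stage, with 2 at an unadjusted p under 0.05 in each, where 2.54% of 20279 genes were called in ESCs and 4.53% in EBs. With the block 2 of 8 were called in each, where 6.54% and 10.1% of genes were. Many other genes differed by as much. Among the signed differences of all genes, *Bmi1* lay at percentile 85.5 in ESCs and 82.8 in EBs. *Pcgf5* lay at percentile 81.7 and 78.6. With 2 libraries a group, a lack of overlap is a weak description, and its share over all genes was not computed. *Rnf2*, at 85.8 and 66.6 against 63.4 and 54.5 TPM in ESCs, was lower in the mutants without overlap but gave -0.36 (95% interval -0.74 to 0.01, limma adjusted p = 0.317), and in EBs -0.17. *Pcgf2* gave -0.22 and -0.19, *Pcgf6* 0.05 and -0.09, *Ring1* 0.20 and 0.33, and *Pcgf1* -0.04 and 0.31, all uncalled. The median of all genes tested was itself 0.12 higher in mutant ESCs and 0.10 higher in mutant EBs. After median-of-ratios scaling, which moved these medians to 0, *Bmi1* stood 0.87 higher in ESCs (limma adjusted p = 0.0480) and 0.72 higher in EBs (0.0593), and after quantile normalization 0.82 (0.0712) and 0.76 (0.0526). *Pcgf5* stood 0.67 and 0.54 higher after median-of-ratios scaling (limma adjusted p = 0.166 and 0.199).

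A contrast averaged over both stages was added after these values were seen. It gave *Bmi1* 0.93 (SE 0.15, 1.91-fold, limma adjusted p = 0.00976) and *Pcgf5* 0.74 (SE 0.14, 1.68-fold, limma adjusted p = 0.0181), so 2 of 8 members rose where 10.4% of genes did. *Bmi1* lost its call without mutant ESC replicate 1 (adjusted p = 0.0536) or replicate 2 (adjusted p = 0.0639). *Pcgf5* kept its call without control ESC replicate 2 (adjusted p = 0.0317), and without each of the other 7 libraries its adjusted p was 0.0519 to 0.101. The EB effect exceeded the ESC effect by -0.17 for *Bmi1* (95% interval -0.86 to 0.53) and by -0.14 for *Pcgf5* (-0.81 to 0.53), with 0 of 8 members called by limma and 0 at an unadjusted p under 0.05, where 0.00986% of genes were called.

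The make-up of canonical PRC1 transcripts moved accordingly. *Bmi1* was 8.27 and 9.30% of the sum of *Pcgf2* and *Bmi1* in control ESCs and 16.9 and 20.3% in mutant ESCs. In EBs it was 12.6 to 13.2% in controls and 22.8 to 23.9% in mutants. The sum over the 6 PCGF genes changed less, from 242 and 249 TPM in control ESCs to 254 and 262 in mutant ESCs. Feeder marker sums were 28.6 to 39.9 TPM in control and 60.1 to 68.1 in mutant libraries of this line, and their part in the result was not tested.

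*Commd3* lies next to *Bmi1* and was looked at after the values of *Bmi1* were known. On mm9 it spans chr2:18594011-18597858 on the plus strand and ends 786 bases before *Bmi1* begins at chr2:18598645, so the genes share a strand and do not overlap. *Commd3* read 35.7 and 46.4 TPM in control ESCs and 90.8 and 113 in mutant ESCs (1.31, 2.48-fold, limma adjusted p = 0.0171). In EBs it read 45.0 and 46.9 in controls and 94.97 and 98.5 in mutants (1.07, 2.10-fold, limma adjusted p = 0.0198). The neighbour was thus higher by a larger factor than *Bmi1* in both stages, and the difference between the genes was not tested. Whether reads beyond the end of *Commd3* were counted to *Bmi1* was not tested.

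**Figure D3:**
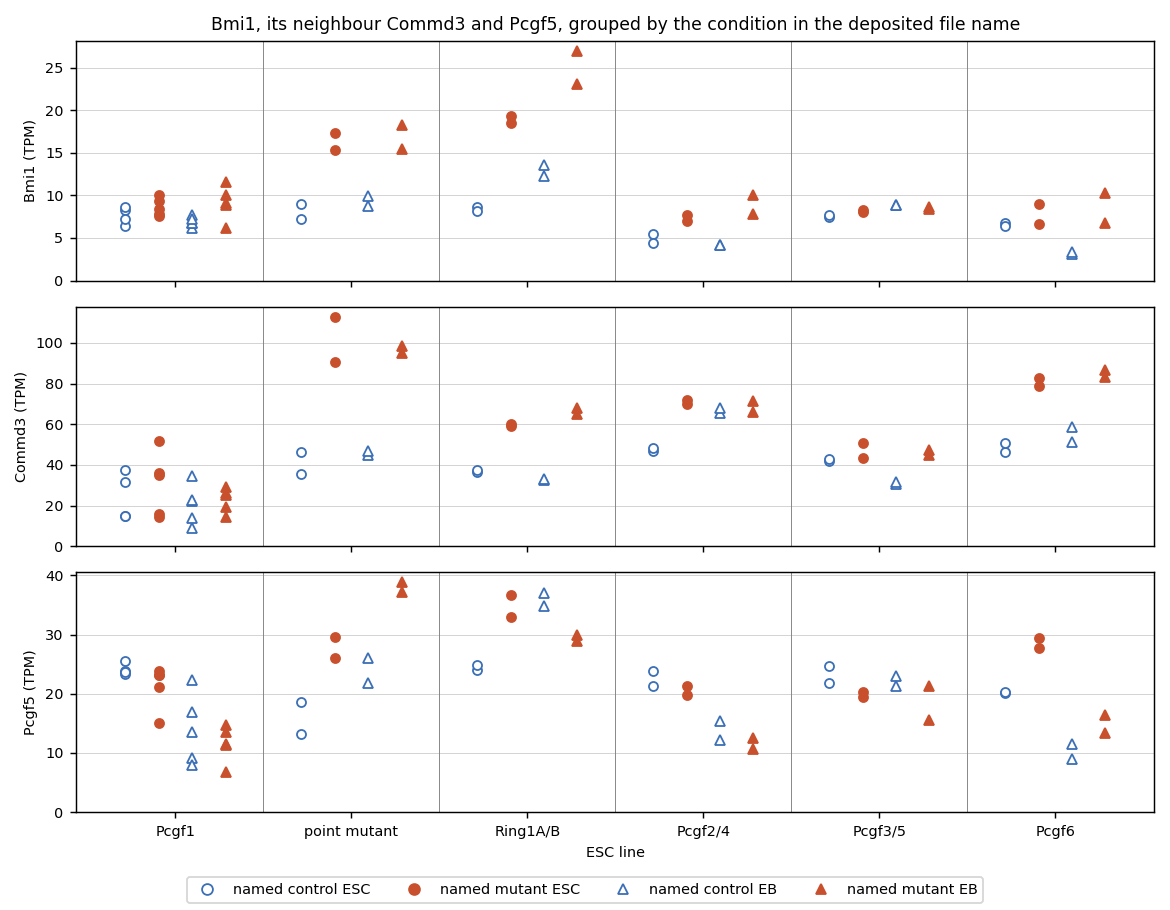
TPM on linear axes from 0 for *Bmi1* (top), its neighbour *Commd3* (middle) and *Pcgf5* (bottom) in every library of the 6 lines, placed by the condition in the deposited file name (open blue, control; filled orange, mutant; circles, ESC; triangles, EB). In the point mutant and Ring1A/B lines the named mutants lie above the named controls for *Bmi1* and *Commd3*, as at 15.3 to 18.3 against 7.19 to 9.88 TPM of *Bmi1* in the point mutant line.

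The 37 other Polycomb genes were also read in the point mutant line. In ESCs only *E2f6*, a PRC1.6 partner, was higher by limma (1.00, adjusted p = 0.0315), where 2.54% of all genes were called. In EBs *Cbx8* (2.22, adjusted p = 0.0354) and *Phc2* (1.58, adjusted p = 0.0111) were higher by limma and *Phc1* was lower (-1.19, adjusted p = 0.0151). Of all genes, 4.53% were called in EBs, and the list was not tested against these shares. *Cbx8*, *Phc2* and *Phc1* encode partners of PCGF2 and BMI1 in canonical PRC1.

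In the Ring1A/B line *Bmi1* read higher in the libraries named mutant, with the labels read as above. Libraries labelled ESC read 8.61 and 8.14 (labelled control, named control ESC) and 13.6 and 12.3 TPM (labelled mutant, named control EB). Libraries labelled EB read 18.5 and 19.3 (labelled control, named mutant ESC) and 26.98 and 23.1 TPM (labelled mutant, named mutant EB). All 4 libraries named mutant lay above all 4 named control. The libraries labelled EB exceeded those labelled ESC by 1.05 (SE 0.07, 2.08-fold, limma adjusted p = 8.3e-06), and those labelled mutant exceeded those labelled control by 0.51 (SE 0.07, 1.43-fold, limma adjusted p = 0.000499). In these contrasts 58.5% and 49.6% of all genes were called.

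*Rnf2*, the gene floxed in this line, was not reduced in the libraries named mutant. It read 95.1 and 83.2 TPM (named mutant ESC) and 78.1 and 80.5 (named mutant EB), against 78.2 and 77.2 (named control ESC) and 63.2 and 62.9 (named control EB). The deposited value covers the whole gene, and the part removed by deletion is not given in the sources used here, so *Rnf2* TPM does not check the labels. *Ring1* stayed between 0.973 and 3.41 TPM in the 8 libraries.

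The remaining PCGF genes of the Ring1A/B line differed by less when averaged over both stages of the file names. *Pcgf5* read 23.98 and 24.78 TPM in named control ESCs and 36.65 and 32.99 in named mutant ESCs. In named EBs it went the other way, at 34.75 and 37.02 in controls and 28.91 and 29.98 in mutants. *Pcgf1* was lower in named mutant EBs, at 23.17 and 22.15 against 41.54 and 36.39 TPM in controls. In named ESCs it read 30.77 and 30.91 in mutants and 30.56 and 27.58 in controls. These differences equal labelled EB against ESC within labelled control (named ESCs) and within labelled mutant (named EBs). Limma called 5 and 6 of 8 members in these contrasts. The shares over all genes are not given here, so these counts are not read as a result about the members. The average that follows mixes both named stages, in which *Pcgf5* went opposite ways. For libraries labelled EB against ESC, which are those named mutant against those named control, limma gave *Pcgf3* 0.35 (adjusted p = 0.000284), *Rnf2* 0.26 (adjusted p = 0.00122), *Pcgf1* -0.35 (adjusted p = 0.00108), *Pcgf2* -0.23 (adjusted p = 0.00134), *Pcgf6* -0.12 (adjusted p = 0.0405) and *Pcgf5* 0.11 (adjusted p = 0.0689). That made 6 of 8 members called, where 58.5% of genes were, a share near the background. For libraries labelled mutant against control, which are those named EB against those named ESC, *Bmi1*, *Pcgf6* (0.36), *Pcgf5* (0.16) and *Ring1* (0.82) were higher and *Rnf2* (-0.23) was lower by limma, 5 of 8 members where 49.6% of genes were called. The call on *Pcgf6* between labelled EB and ESC was lost without any 1 library except replicate 1 labelled control ESC or mutant ESC (adjusted p = 0.0560 to 0.144). Between labelled mutant and control, the call on *Ring1* was lost without any 1 library except labelled control EB replicate 1 (0.0504 to 0.110), and that on *Pcgf5* without any 1 library except replicate 1 labelled mutant ESC or control EB (0.0577 to 0.0916). The median of all genes was 0.19 higher in libraries labelled EB, and 0.06 after median-of-ratios scaling. *Commd3* read 32.7 to 37.7 TPM in libraries labelled ESC (named control) and 59.2 to 67.8 in those labelled EB (named mutant) (0.85, limma adjusted p = 5.79e-07). Feeder marker sums were 150 to 151 TPM in labelled control ESCs, 24.4 to 25.9 in labelled mutant ESCs (named control EB), 373 to 397 in labelled control EBs (named mutant ESC) and 65.0 to 65.2 in labelled mutant EBs, and their part was not tested.

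In the Pcgf6 line, *Pcgf6* was the member that differed most between libraries labelled EB and ESC. It read 91.5 and 67.1 TPM in libraries labelled control ESC and 105 and 78.8 in those labelled mutant ESC, all 4 named control. Libraries labelled EB read 34.7 and 35.7 (labelled control) and 37.0 and 46.3 (labelled mutant), all 4 named mutant. These groups did not overlap, and *Pcgf6* in the named mutants kept a level above that of *Bmi1* or *Ring1*. The difference of labelled EB minus labelled ESC was -1.14 (SE 0.21, limma adjusted p = 0.150), and it passed when replicates were blocked (adjusted p = 0.0469).

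Paralogues in the Pcgf6 line gave no call. *Bmi1* read 6.77, 3.07, 6.40 and 3.40 TPM in libraries labelled ESC and 8.95, 6.76, 6.69 and 10.3 in those labelled EB, with overlap (0.79, limma adjusted p = 0.456). Within the file-name stages, *Bmi1* read 3.07 and 3.40 in named control EBs and 6.76 and 10.3 in named mutant EBs, without overlap, and 6.40 and 6.77 against 6.69 and 8.95 in named ESCs, with overlap. In named EBs *Pcgf3* read 3.62 and 5.14 in controls and 12.3 and 23.0 in mutants, and *Pcgf1* 25.8 and 29.02 against 15.1 and 17.1, both without overlap, whereas in named ESCs both overlapped. *Pcgf5* read 20.1 and 20.4 in named control ESCs and 27.8 and 29.5 in named mutant ESCs, and 9.06 and 11.6 against 13.5 and 16.4 in named EBs, without overlap in either. None of these separations by file name was tested. Each set 2 libraries against 2 on TPM that was not rescaled, and the share of all genes so separated is not given here. They are therefore a weak description. *Pcgf3* gave 1.01 (95% interval -0.27 to 2.29), *Pcgf5* 0.51 (-0.46 to 1.49) and *Pcgf2* 0.21 (-0.45 to 0.87), where the median of all genes was 0.36 and fell to 0.05 with median-of-ratios scaling. By limma 0 of 8 members were called, with 1 at an unadjusted p under 0.05, where 0.0406% of genes were called, and with the block 1 of 8 where 1.64% were. For libraries labelled mutant against control, 0 of 8 members were called by limma and 0 had an unadjusted p under 0.05, where 0% of genes were called. By file name, this contrast set libraries of the same conditions against each other, so it could not show an effect of the deletion. Each labelled group of this line also mixed named ESCs with named EBs.

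In the Pcgf2/4 line *Bmi1* and *Pcgf2* are the floxed genes, and neither was lower in the libraries named mutant. *Bmi1* read 5.47, 4.23, 4.45 and 4.12 TPM in libraries labelled ESC, all named control, and 7.73, 7.83, 7.01 and 10.03 in those labelled EB, all named mutant. The groups did not overlap, and the difference was 0.82 (95% interval 0.26 to 1.38, 1.76-fold, unadjusted p = 0.0110 and adjusted p = 1.00 by limma). *Rnf2* read 75.2 to 80.6 and 87.9 to 91.0 TPM, also without overlap, and *Pcgf2* 39.6 to 49.6 and 43.7 to 55.0 TPM with overlap. The share of all genes without overlap is not given here. By limma 0 of 8 members were called in either labelled contrast (1 at an unadjusted p under 0.05 for EB against ESC and 0 for mutant against control), where 0% of all genes were called in both. By file name, the libraries labelled mutant and control held the same conditions, so that contrast could not show an effect of the deletion. Each labelled group of this line also mixed named ESCs with named EBs. As for *Rnf2* above, a value over the whole gene does not check the deletion.

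In the Pcgf3/5 line the floxed genes *Pcgf3* and *Pcgf5* stayed well above 0 in every library. *Pcgf3* read 29.9 and 29.2 TPM in libraries named control ESC, 29.6 and 33.5 in those named control EB, 35.6 and 33.8 in those named mutant ESC, and 27.6 and 35.6 in those named mutant EB. *Pcgf5* read 21.8 and 24.7 TPM in named control ESCs, 22.9 and 21.3 in named control EBs, 20.4 and 19.5 in named mutant ESCs and 21.3 and 15.6 in named mutant EBs. Named mutants thus held 15.6 to 21.3 TPM of *Pcgf5* and named controls 21.33 to 24.7, adjoining without overlap, while *Pcgf3* overlapped. *Pcgf2* read 58.1 and 58.7 in named control EBs and 46.5 and 48.4 in named mutant EBs, and 58.6 and 59.6 against 65.7 and 66.9 in named ESCs, apart in both stages but in opposite directions. These separations by file name were not tested, and the share of all genes so separated is not given here. *Bmi1* kept within 7.47 to 8.92 TPM over the 8 libraries. By limma 0 of 8 members were called for labelled EB against ESC (1 at an unadjusted p under 0.05), where 0.00501% of genes were, and 0 for labelled mutant against control (0 unadjusted), where 0% were. By file name, 2 of the 4 labelled groups of this line mix stages and the other 2 mix control with mutant, so these contrasts compare mixed libraries.

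Between stages of the Pcgf1 line, *Rnf2* and *Pcgf5* fell and *Pcgf6* rose from ESC to EB in controls and again in KO cells, 3 of 8 members each, where 24.9% and 18.3% of genes were called. In KO cells *Pcgf5* read 23.9, 15.02, 23.3, 23.2 and 21.1 TPM in ESCs and 11.4, 6.78, 11.4, 14.7 and 13.6 in EBs, without overlap (-0.90, SE 0.25, limma adjusted p = 0.0178). *Pcgf6* in KO cells read 65.4, 51.8, 56.2, 61.2 and 67.1 TPM in ESCs and 65.1, 65.5, 98.7, 84.4 and 84.1 in EBs, with overlap (0.39, limma adjusted p = 0.0377). *Rnf2* in KO cells gave -0.47 (limma adjusted p = 0.0310) and in controls -0.64 (limma adjusted p = 0.00530). These comparisons share no libraries between control and KO, and their difference, tested above as the interaction, was not called.

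Several of these stage calls hung on scaling or on 1 library. After median-of-ratios scaling, *Pcgf6* in controls kept its call and 0 of 8 members in KO cells had one. *Rnf2* in KO cells lost its call without KO ESC replicate 1 or 3 or KO EB replicate 1, 2 or 3, with adjusted p of 0.0509 to 0.0885, and *Pcgf6* without KO ESC replicate 2, 3 or 4 or KO EB replicate 3, 4 or 5, with adjusted p of 0.0622 to 0.109. *Pcgf5* lost it in controls without EB replicate 2 (adjusted p = 0.0583) or 3 (adjusted p = 0.0608) and in KO cells without EB replicate 2 (adjusted p = 0.0542).

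**Figure D4:**
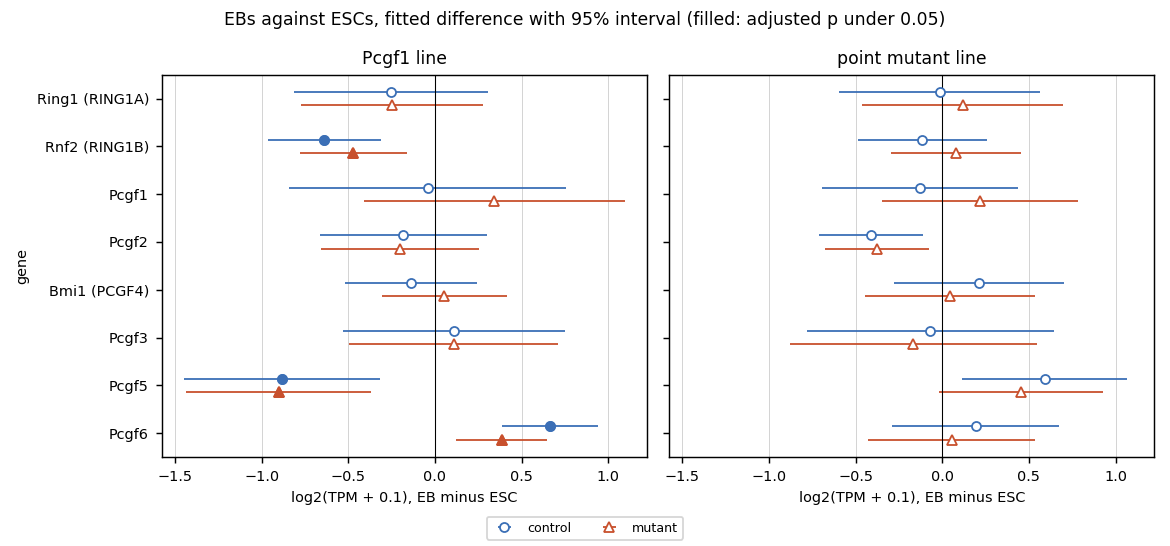
Fitted difference of EB minus ESC on the log2(TPM + 0.1) scale with its 95% interval for the 8 genes in control (circles) and mutant cells (triangles), in the Pcgf1 line (left) and the point mutant line (right); filled symbols passed an adjusted p of 0.05. *Pcgf5* lies at -0.88 and -0.90 on the left and at 0.59 and 0.45 on the right.

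In the point mutant line no member was called between stages within control or mutant cells. *Pcgf5* stood higher, not lower, in EBs, by 0.59 in controls (limma adjusted p = 0.160) and 0.45 in mutants (limma adjusted p = 0.521), and the difference between the lines was not tested. *Pcgf2* stood lower by 0.41 and 0.38, without overlap in either. By limma 0 of 8 members were called in controls (2 at an unadjusted p under 0.05), where 4.73% of genes were, and 0 in mutants (1 unadjusted), where 0.133% were. Averaged over control and mutant cells, a contrast added after these values were seen, *Pcgf2* was lower by limma (-0.39, SE 0.09, adjusted p = 0.0481) and *Pcgf5* gave 0.52 (SE 0.14, adjusted p = 0.0744), so 1 of 8 members was called where 6.64% of genes were. The call on *Pcgf2* was lost when each of the 8 libraries was left out in turn (adjusted p = 0.0629 to 0.166), and with replicates blocked both passed (0.0311 for *Pcgf2* and 0.0317 for *Pcgf5*), 2 of 8 where 14.6% of genes were. Of the 37 other Polycomb genes, 5 rose and 3 fell in controls of the Pcgf1 line, a share below that of all genes (24.9%), among them *Kdm2b*, the PCGF1 partner that binds CpG-rich DNA (1.01, limma adjusted p = 0.0272), and the PRC2 core gene *Suz12* (-0.83, limma adjusted p = 0.00301).

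Genes whose levels ran most like each member were ranked by Pearson r of log2(TPM + 0.1), centred on the mean of each line, over 59 libraries and 13724 genes. The libraries share lines, series and stages, so r is a description. *Pcgf3* had the closest companions, *Kpna6* (0.94), *Pmpca* (0.94) and *Cdc23* (0.93). *Pcgf2* ran with *Sp2* (0.88), *Zc3h3* (0.84) and *Mllt6* (0.84), and *Bmi1* with *Npnt* (0.81) and *Nab1* (0.80). *Rnf2* ran with *Ccnc* (0.81), *Zfp97* (0.80) and *Pqlc3* (0.80), *Pcgf5* with *2610020H08Rik* (0.82), *Gadd45b* (0.81) and *Tfr2* (0.80), and *Ring1* with *Mgat3* (0.78), *Arrdc2* (0.75) and *Ruvbl2* (0.75). *Pcgf1* (*Cd6* 0.72, *Irak1bp1* 0.66, *Dmrtc2* 0.65) and *Pcgf6* (*Dscc1* 0.68, *Rab19* 0.67, *D930048N14Rik* 0.66) had looser ones. Among the members themselves the highest r was 0.61, for *Bmi1* with *Pcgf3*, and the lowest -0.37, for *Rnf2* with *Pcgf6*.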

How the data were processed

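Poly(A) RNA from 59 libraries was measured by RNA-seq. Per the study's methods and the submitters' processing notes, reads were aligned to mm9 with STAR 2.5.2b and counted on exons, and the authors deposited TPM values per gene, 1 table a library, each summing to 1000000. Read depth is unknown, so no counting intervals are given, and 6039 to 9139 genes were at 0 in a library. No pair of the 1711 library pairs was identical.

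Genes above 0 in at least 1 library of a fit were tested on log2(TPM + 0.1) with limma 3.58.1 (trend; R 4.3.3), 1 fit per line over its 4 labelled groups, with Benjamini-Hochberg adjustment over all genes tested and a threshold of 0.05. Fold changes are on that scale and understate changes of low genes. Groups came from the labels, and the tests were checked on simulated data. Members in every comparison, the 3 genes most like each by r, and other Polycomb genes that passed were named. Some genes that met these rules are not reported here. The members and lists were chosen with earlier results of these data known. The alternatives tried were a pseudocount of 1, only genes averaging 1 TPM or more, scaling by medians of ratios or by quantiles, a fit of only the groups compared, a replicate block, and leaving out each library; a library series block and averages over stages or states were added after the data were seen.

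Same-numbered libraries deviated together, by the correlation of their deviations from group means, in the Pcgf1 (r 0.317 to 0.653), point mutant (0.106 to 0.381), Pcgf2/4 (0.616 to 0.758) and Pcgf6 lines (0.281 to 0.759), where numbers were taken as pairs, but not in the Pcgf3/5 (-0.79 to 0.082) or Ring1A/B lines (-0.038 to 0.048). In the Pcgf2/4 and Pcgf6 lines, the number also separates the stages given in the file names. Python 3.11.15, numpy 2.4.6, pandas 2.3.3 and matplotlib 3.10.9 were used.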

Additional observations from a re-analysis of the deposited data

Results flagged for a closer look

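Of 32 sets of 4 or 5 libraries, 1 for each member and group of the Pcgf1 line, 2 had a library far from the others by Dixon's gap test, which marks about 1 in 20 sets by chance. Both were *Rnf2* in replicate 1 of the Pcgf1 line. Control ESC replicate 1 read 113.9 TPM where the other 3 read 81.2 to 83.3, and *Pcgf1*-KO ESC replicate 1 read 128.1 TPM where the other 4 read 88.1 to 97.95. These libraries carry a series code of their own among the 3 of that line, and its part was not tested.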

How the results depend on the processing

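The count of the 8 members called moved by over 1.5 times in the following cases. With median-of-ratios scaling it went from 3 to 1 for control EBs against ESCs and from 3 to 0 for mutant EBs against ESCs of the Pcgf1 line, from 0 to 1 for point mutant against control ESCs, and from 0 to 1 for the Pcgf6 line labelled EB against ESC. Quantile normalization gave 0 for Pcgf1-line mutant EBs against ESCs and 2 for its mutant against control EBs (from 1). It also gave 2 for its mutant against control averaged over stages (from 1), and 1 for the Pcgf6 line. A fit of only the groups compared gave 1 for Pcgf1-line mutant EBs against ESCs, the library series block gave 2 for its mutant against control EBs, a mean TPM of at least 1 gave 1 for point mutant ESCs, and a pseudocount of 1 gave 0 for control EBs between lines (from 1). With the replicate block the count was 2 for point mutant against control in ESCs and in EBs and 1 for the Pcgf6 line labelled EB against ESC; averaged over control and mutant cells, the block took EBs against ESCs from 3 to 5 in the Pcgf1 line and from 1 to 2 in the point mutant line. It moved no other count of the comparisons within a stage or state, or by label, by over 1.5 times. Leaving out 1 library gave 2 to 4 for Pcgf1-line control EBs against ESCs, 1 to 3 for its mutant EBs against ESCs (1 without mutant EB replicate 2, mutant ESC replicate 3 or mutant EB replicate 3), 3 to 5 for the Ring1A/B line labelled mutant against control, 5 to 6 for its labelled EB against ESC, 1 to 3 for control ESCs between lines and 0 for control EBs between lines. Of 413 values of called members under these alternatives 336 kept their call, 77 lost it and 0 changed sign; of 1761 values of uncalled members, 162 changed sign and 14 passed. The cause was not tested. TPM keeps no depth, and groups of 2 libraries limit the precision in 5 lines.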
